A study of Homo sapiens with 18 samples.

Results

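Erastin (ER) is a small molecule that blocks system xc-, the antiporter built from SLC7A11 and SLC3A2 that brings cystine into the cell. Cystine is reduced to cysteine for glutathione, and GPX4 uses glutathione to remove lipid peroxides, so long starvation of this route ends in ferroptosis, an iron-dependent form of cell death. The early hours after ER were measured here in HCT116, an established human colon carcinoma cell line. The comparison holds 6 of the 18 arrays of the series, 3 of HCT116 cells treated with ER for 4 h and 3 of HCT116 cells left untreated. ER was given at 2.5 µM. The methods describe 3 independent experiments and name neither a vehicle nor a time in culture for the untreated cells, so an effect of ER cannot be told apart from one of either. The 3 HCT116 arrays of 24 h ER entered the same fit, and arrays labelled HT-29, a second colon cancer line, serve below as a separate set at 4 h.

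The members are the transcript clusters of the array that the platform annotates to 1 gene, 35528 of 134748 clusters, and they stand for 33578 genes. A gene with several clusters is represented by the one with the highest mean signal. Of the genes, 17355 were protein-coding by RefSeq, and the account below is mostly about these. Values are normalized signals on the log2 scale as the authors deposited them. They ran up to 19.92, above the 16 that a 16-bit scanner allows, so the scale is in doubt, and every fold below, taken as 2 to the power of the log2 difference, shares that doubt.

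The 6 arrays were alike in level, with medians from 5.486 to 5.558 and pairwise correlations from 0.9844 to 0.9917 across single-gene clusters. The epithelial label held in all of them, since the median of 10 epithelial colon markers was at least 12.64 at 4 h and at least 12.37 in untreated cells, with 8 of 10 averaging above 8 in both groups. The defining markers of endothelial cells stayed low, at medians of 5.41 to 5.68 at 4 h and 5.49 to 5.56 in untreated cells. Immune markers lay at 6.18 to 6.59 and 6.05 to 6.4, and fibroblast markers at 5.93 to 6.15 and 5.84 to 6.26, in the same order of groups. Of the 16 markers of intestinal differentiation, 1 averaged above 8 in either group.

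The response at 4 h was small. A differentially expressed transcript (DET) is defined here, by the thresholds in the methods, as a fold of at least 1.2 with an unadjusted p of at most 0.005, tested with limma. Over all 135750 transcripts 394 were DETs (0.290%), 157 higher (0.116%) and 237 lower (0.175%) at 4 h than in untreated cells, fewer than the 679 that a p of this size would give if nothing differed. No transcript passed a Benjamini-Hochberg adjusted p under 0.05 in limma or in the methods' t-test, run without the permutation step they also name, and the lowest adjusted p of any gene in limma was 0.9998. At an unadjusted p under 0.05 limma counted 5222 transcripts (3.85%) and the methods' t-test 6620. Among single-gene clusters 46 were higher (0.129%) and 26 lower (0.0732%). Each DET named below therefore passed an unadjusted threshold only, and its difference is given with its SE from limma.

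Among protein-coding genes 34 were higher DETs (0.196%) and 9 were lower DETs (0.0519%). In all 43 the 4 h arrays did not overlap the untreated arrays, which held for 11.2% of protein-coding genes at large. Choosing the 43 by p on these same arrays nearly fixed that outcome, so it adds no support. The methods' t-test on the same 6 arrays kept 7 of the 43 as DETs (MARCHF9, CPVL, BCAR3, CCNJL, H2AC8, OR6K6 and DEFB135). The higher DETs had differences from 0.64 upward with a median of 0.93, and 13 of 34 reached a fold of 2, against 2 of the 9 lower DETs. The higher DETs had a median log2 signal of 9.18 and the lower DETs one of 6.88, where all protein-coding genes had 7.6.

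**Figure D1:**
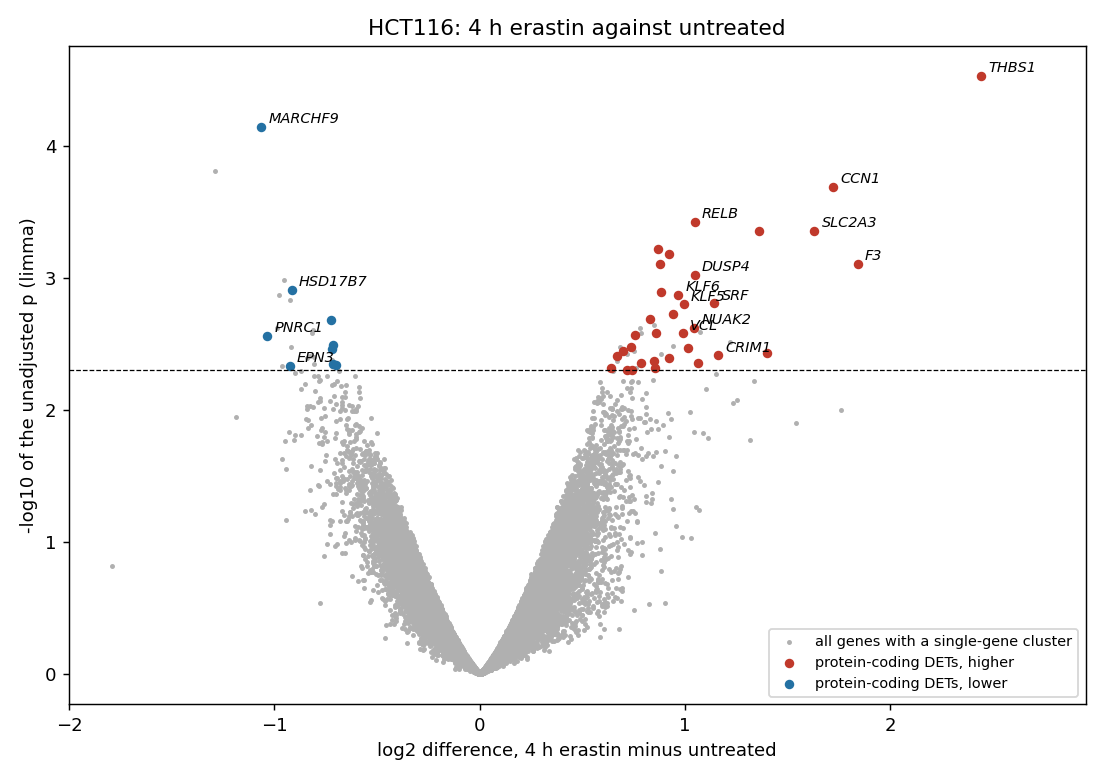
Log2 difference at 4 h (x axis, 4 h erastin minus untreated HCT116) against -log10 of the unadjusted limma p (y axis) for each gene with a single-gene cluster. The dashed line is the p threshold of a DET; THBS1 stands farthest from the origin at 2.44, and the 34 higher protein-coding DETs (red) outnumber the 9 lower ones (blue).

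The 3 protein-coding DETs with the largest differences, THBS1, F3 and CCN1, are genes that YAP and TEAD are known to switch on. YAP is a coactivator that the Hippo pathway keeps out of the nucleus, and TEAD proteins are its DNA-binding partners. SRF, a factor that acts on actin and growth signals with its coactivators MRTF and the ternary complex factors, shares several of these targets and binds a DNA element called the CArG box. The starts of 4 higher DETs described below are shown, because letters known as elements of these factors or of AP-1 occur in them. Each is the RefSeq window of 300 bases, from 250 before to 50 after the annotated start, on GRCh38.p14, with capitals for the CArG box (CC, then 6 of A or T, then GG) in SRF, for GGAATG (the TEAD core, also read as CATTCC) in VCL and THBS1, and for TGANTCA (the AP-1 element) in F3. SRF is chr6:43171019-43171318 on the plus strand, VCL chr10:73997866-73998165 on the plus strand, THBS1 chr15:39580829-39581128 on the plus strand and F3 chr1:94541710-94542009 on the minus strand.
SRF: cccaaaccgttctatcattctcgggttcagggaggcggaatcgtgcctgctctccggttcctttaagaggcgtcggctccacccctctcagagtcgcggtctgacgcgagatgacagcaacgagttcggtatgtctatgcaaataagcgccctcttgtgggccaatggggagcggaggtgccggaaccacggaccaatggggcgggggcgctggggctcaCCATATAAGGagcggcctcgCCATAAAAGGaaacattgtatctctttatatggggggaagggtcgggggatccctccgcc
VCL: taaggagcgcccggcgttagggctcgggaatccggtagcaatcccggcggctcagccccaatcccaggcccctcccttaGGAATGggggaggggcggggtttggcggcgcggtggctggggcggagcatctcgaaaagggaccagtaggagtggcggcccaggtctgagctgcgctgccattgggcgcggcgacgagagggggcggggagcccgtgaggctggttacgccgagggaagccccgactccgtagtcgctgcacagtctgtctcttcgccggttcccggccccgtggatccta
THBS1: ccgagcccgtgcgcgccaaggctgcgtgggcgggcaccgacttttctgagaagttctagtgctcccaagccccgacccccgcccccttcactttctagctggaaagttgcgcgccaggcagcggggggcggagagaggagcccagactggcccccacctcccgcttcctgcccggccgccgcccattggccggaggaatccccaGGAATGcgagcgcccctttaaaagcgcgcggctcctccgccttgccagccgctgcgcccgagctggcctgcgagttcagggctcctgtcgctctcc
F3: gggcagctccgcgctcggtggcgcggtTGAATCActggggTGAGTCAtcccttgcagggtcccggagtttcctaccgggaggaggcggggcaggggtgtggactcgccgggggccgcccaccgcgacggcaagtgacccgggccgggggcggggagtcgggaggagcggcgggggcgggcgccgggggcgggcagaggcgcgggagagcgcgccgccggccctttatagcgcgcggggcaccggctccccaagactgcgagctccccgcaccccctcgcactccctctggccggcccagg

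Both strands were searched, and none of these motifs overlaps another in the windows shown. The SRF window holds 2 CArG boxes, which begin 30 and 10 bases before the start. Of the 34 higher DETs 21 had a RefSeq promoter, and SRF was the only 1 of the 21 with a CArG box, an element found in 1.22% of 14079 protein-coding promoters. GGAATG or its complement was in 3 of the 21 (THBS1, NUAK2 and VCL) and in 3 of the 8 lower DETs with a promoter, where all promoters had it in 11.6%. TGANTCA was in 3 of the 21 (F3, ABL2 and PLAUR) and in 0 of the 8, against 5.75% of all. A match to these letters is a description of the window and says nothing of binding.

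THBS1, cluster TC1500006925.hg.1, encodes thrombospondin 1, a secreted glycoprotein of the matrix. Its log2 signal was 11.53, 10.39 and 11.03 in the 4 h arrays, against 7.77, 9.13 and 8.73 in the untreated arrays. Every 4 h array stood more than 1 log2 unit above the highest untreated array. The log2 difference was 2.44 ± 0.38 (SE, n = 3 per group), a 5.43-fold higher signal, and it was 2.05 without untreated replicate 1.

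F3, tissue factor, starts blood coagulation at the cell surface. Its signal was 11.84, 12.12 and 11.77 in the 4 h arrays, against 8.80, 10.79 and 10.62 in the untreated arrays. The 4 h arrays were close to each other, while untreated replicate 1 lay far below the other untreated arrays. The difference was 1.84 ± 0.42 (SE) and was 1.21 without untreated replicate 1.

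CCN1, which codes for a matricellular protein of adhesion and migration, had 9.64, 9.98 and 9.83 at 4 h, against 7.17, 8.44 and 8.68 in untreated cells. Here too the groups did not overlap and untreated replicate 1 was the lowest array. The difference of 1.72 ± 0.33 (SE) became 1.26 without that array, and the gene remained a DET. None of THBS1, F3 and CCN1 was a DET in the methods' t-test.

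NUAK2, a kinase of the AMPK family that acts on actomyosin, had 8.41, 9.07 and 8.71 at 4 h, against 7.23, 7.54 and 8.30 in untreated cells, a difference of 1.04 ± 0.27 (SE). CRIM1, a membrane protein that holds BMP ligands, had 11.98, 12.23 and 12.43 at 4 h, against 10.26, 11.89 and 11.02 in untreated cells, a difference of 1.16 ± 0.33 (SE). In either gene the highest untreated array came close to the lowest 4 h array. When untreated replicate 1 was left out neither was a DET, with differences of 0.81 for NUAK2 and 0.76 for CRIM1.

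These 5 were all the DETs among 24 measured YAP and TEAD targets, and none was lower, where 0.196% of all protein-coding genes were higher DETs. This list, like the others below, was chosen with earlier results of these data known. Its count is therefore a description and adds no support. The median difference over the list was 0.323, with 20 of 24 above 0, where protein-coding genes as a whole had a median of 0.055. CCN2 and ANKRD1, well-known members, were dim, near the level of the endothelial and immune markers. CCN2, the close relative of CCN1, had 6.15, 6.29 and 5.93 at 4 h, against 5.32, 5.997 and 5.74 in untreated cells, and its difference of 0.44 ± 0.22 (SE) missed the threshold. ANKRD1 differed by 0.10. The list kept 3 DETs (THBS1, F3 and CCN1) without untreated replicate 1, and its median was 0.229. Without 4 h replicate 1 it held 4, at a median of 0.491.

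**Figure D2:**
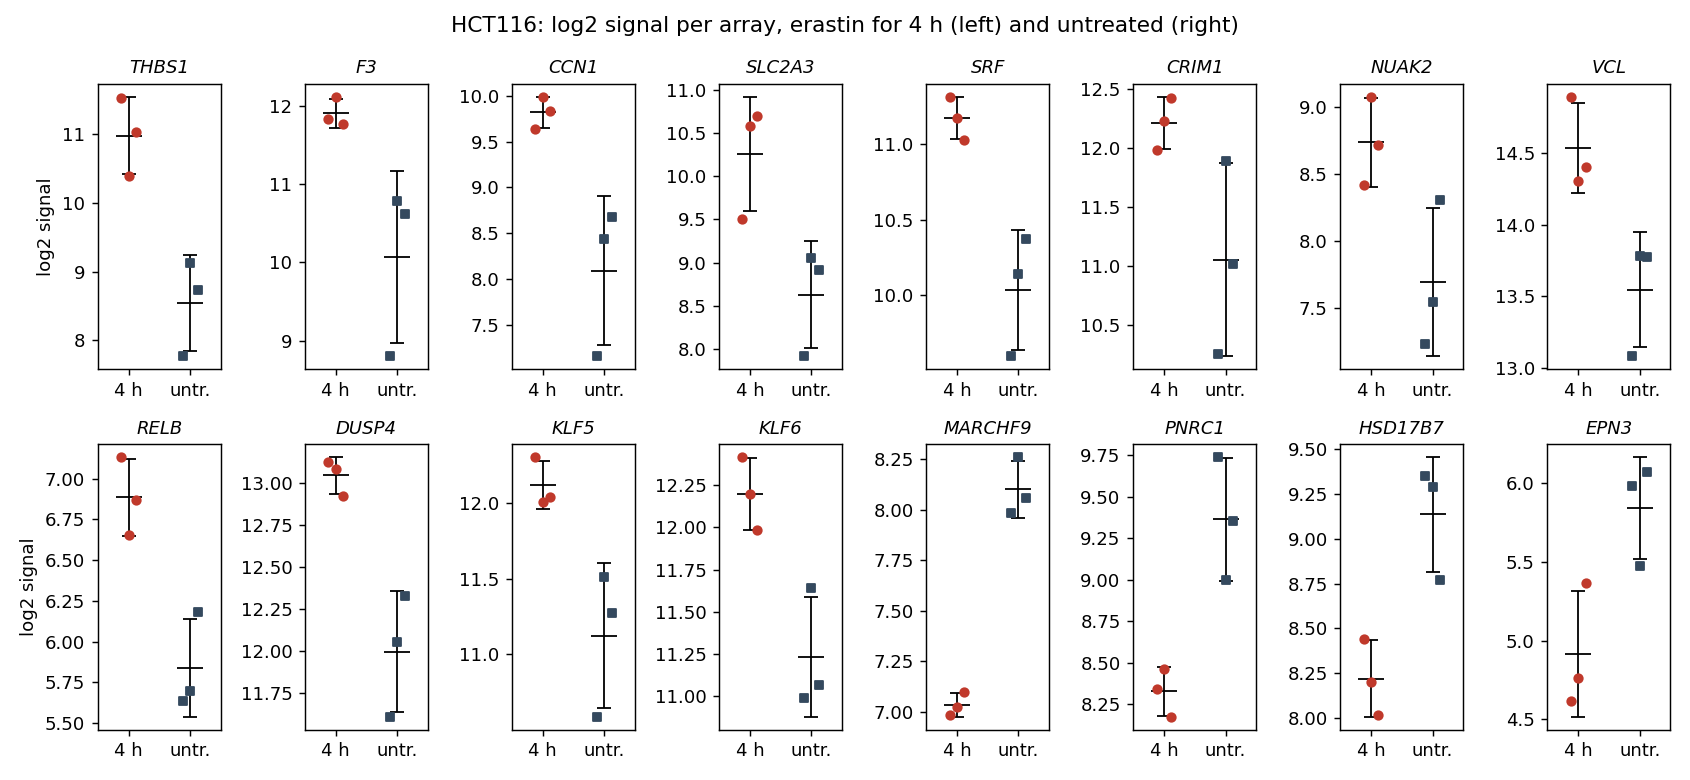
Log2 signal on each array for 16 DETs of HCT116, with the 3 arrays of 4 h erastin as red circles on the left and the 3 untreated arrays as dark squares on the right, replicates 1 to 3 from left to right. Horizontal bars are means and error bars the SD of 3 arrays; the groups do not overlap in any panel, and in F3 the leftmost square, untreated replicate 1, lies far below the other untreated arrays (8.80).

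SRF itself and 1 of its cytoskeletal targets were DETs. SRF had 11.32, 11.18 and 11.03 at 4 h, against 9.59, 10.14 and 10.37 in untreated cells, so that the lowest 4 h array was above the highest untreated array. The difference was 1.14 ± 0.28 (SE). VCL, vinculin, which links integrin adhesions to actin filaments, had 14.89, 14.30 and 14.40 at 4 h, against 13.08, 13.78 and 13.78 in untreated cells, a difference of 0.99 ± 0.26 (SE). Neither was a DET without untreated replicate 1, where SRF differed by 0.92 and VCL by 0.76.

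Of 33 measured SRF and MRTF targets 2 were DETs, both higher (0.196% among protein-coding genes), and 30 of 33 had a difference above 0 with a median of 0.262. The median of protein-coding genes grew with signal, to 0.112 for those between 10 and 12 on the log2 scale, and the median signal of the list was 11.54. Counts above 0, here and in the other lists, have to be read beside those of lists not linked to these factors. Of 30 cytosolic ribosomal proteins 28 were above 0 and of 28 proteasome subunits 25, while of 31 ATF4 factors and targets 18 were. Below the threshold, FHL2, a LIM domain protein at focal adhesions, had a difference of 0.77 and LIMA1, an actin-bundling protein, one of 0.84, both with 4 h arrays above all untreated arrays. The actins themselves differed less, by 0.29 for ACTB and 0.37 for ACTG1. Without untreated replicate 1 or without 4 h replicate 1 the list held 0 DETs, and its median was 0.245 and 0.237.

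Further higher DETs were KLF5 and KLF6, DUSP4, TGFA, RELB and TNFRSF12A. KLF5, a zinc finger factor of proliferating crypt cells, had 12.30, 12.01 and 12.04 at 4 h, against 10.59, 11.51 and 11.27 in untreated cells, a difference of 0.99 ± 0.25 (SE). KLF6 had 12.41, 12.20 and 11.99 at 4 h, against 10.99, 11.64 and 11.07 in untreated cells, a difference of 0.97 ± 0.23 (SE). These were the 2 DETs of 14 KLF factors, against the same 0.196%, and all 14 had a difference above 0 with a median of 0.265. Without untreated replicate 1 or without 4 h replicate 1 neither remained a DET.

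DUSP4, a nuclear phosphatase that switches off ERK, had 13.12, 13.08 and 12.92 at 4 h, against 11.61, 12.05 and 12.33 in untreated cells. The 2 groups lay well apart, at a difference of 1.05 ± 0.24 (SE). It was the only DET among 22 ERK feedback genes, where 0.196% of protein-coding genes were higher DETs, and the median of that list, 0.07, was close to that of protein-coding genes. DUSP6 differed by 0.44 and SPRY4 by 0.31, while ETV5, an ETS factor downstream of ERK, was lower, below the threshold, at a log2 difference of -0.62. TGFA, an EGF receptor ligand, had 9.63, 9.36 and 9.68 at 4 h, against 8.65, 8.92 and 9.01 in untreated cells, and was the 1 DET of 15 EGF receptor ligands and receptors (0.196% at large). Neither was a DET without untreated replicate 1, at differences of 0.85 for DUSP4 and 0.59 for TGFA.

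RELB, the NF-kB subunit of the noncanonical pathway, had 7.13, 6.66 and 6.87 at 4 h, against 5.63, 5.70 and 6.18 in untreated cells. The difference was 1.05 ± 0.22 (SE), and RELB stayed a DET without any 1 of the 6 arrays but was none in the methods' t-test. Its untreated arrays 1 and 2 were close to the array medians. It was alone among 22 NF-kB feedback targets (0.196% at large), of which NFKBIA differed by 0.33 and TNFAIP3 by 0.18. TNFRSF12A, the receptor for TWEAK, had 12.35, 11.96 and 12.21 at 4 h, against 10.36, 11.47 and 11.50 in untreated cells, a difference of 1.06 ± 0.31 (SE). Without untreated replicate 1 that difference was 0.69, and the gene was no DET.

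The glucose transporter SLC2A3 (GLUT3) had 9.50, 10.58 and 10.70 at 4 h, against 7.92, 9.06 and 8.91 in untreated cells, a difference of 1.63 ± 0.34 (SE), and stayed a DET without any 1 of the 6 arrays, but not in the methods' t-test. SLC2A14, its near-identical neighbour on the chromosome, had a difference of 1.40 ± 0.39 (SE), and probes of the 2 genes may not tell their transcripts apart. SLC2A1 (GLUT1), with 14.72, 14.64 and 14.62 at 4 h, against 13.53, 14.13 and 14.38 in untreated cells, was not a DET at a difference of 0.64 ± 0.23 (SE). SLC2A3 was the 1 DET of 22 genes of glycolysis and the TXNIP family (0.196% at large), whose median was 0.072.

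The remaining higher DETs were named after their values were seen, apart from ARL14EPL, MOSPD1 and LETM2, which the rule for named genes takes in. ARL14EPL, a gene of little known function, had 8.14, 8.15 and 7.999 at 4 h, against 6.37, 7.28 and 6.57 in untreated cells. Its difference of 1.36 ± 0.29 (SE) passed the threshold without any 1 of the 6 arrays, but not in the methods' t-test. PLAUR, the urokinase receptor, differed by 0.83, ETS1, an ETS factor, by 0.86, BCAR3, an adaptor of focal adhesions, by 0.88 and ABL2, a kinase that binds actin, by 0.86. EDN1, the endothelin 1 precursor, was dim, with 6.20, 6.38 and 6.57 at 4 h, against 5.79, 5.60 and 5.75 in untreated cells. The other 13 were MOSPD1, LETM2, FAM210A, C22orf42, SERTAD2, CPVL, PRRG1, SLC38A7, BBS5, GFOD1 and, at low signal, a group of IGFL2, NCR3 and DEFB135, with differences from 0.64 to 1.01.

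The lists of 14 AP-1 and ATF3 factors and of 22 other immediate early genes held 0 DETs but included large differences. Among protein-coding genes 0.196% were higher DETs, so 0 is the usual count for such lists. CCN1, SRF and KLF6 were counted in other lists above. FOSL1, an AP-1 subunit, had 14.04, 14.25 and 14.21 at 4 h, against 11.51, 12.80 and 13.57 in untreated cells, a difference of 1.54 ± 0.53 (SE). The 4 h arrays lay above all untreated arrays, but the untreated arrays spread over about 2 log2 units. JUN differed by 1.23 ± 0.40, PLK2, a stress-induced kinase, by 1.10 ± 0.34, and MYC by 1.04 ± 0.37 (SE), each with untreated replicate 1 lowest and below the threshold. DKK1, a secreted Wnt inhibitor, had 14.58, 14.66 and 14.58 at 4 h, against 11.13, 13.68 and 13.73 in untreated cells, a difference of 1.76 ± 0.58 (SE), also below the threshold. FOS and EGR1, which serum induces and which return to base within an hour or so, differed by -0.05 and -0.01. The list of 22 other immediate early genes had a median of 0.307, or 0.188 without untreated replicate 1.

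Untreated replicate 1 thus bore on much of the higher group. It was the lowest of the 3 untreated arrays in 25 of the 34 higher DETs, replicate 2 in 6 and replicate 3 in 3, while over all protein-coding genes it was the lowest in 37.7%. Leaving it out brought the single-gene DETs to 17 higher and 35 lower, against 46 and 26 with it, and 11 of the 43 protein-coding DETs remained. The loss was not confined to this array. Of the 43, 17 remained without 4 h replicate 1, 22 without 4 h replicate 2 and 19 without 4 h replicate 3. Without untreated replicate 2, and likewise without untreated replicate 3, 26 remained. The other single arrays whose absence moved the higher count by more than 1.5 times were untreated replicate 2 (79), 4 h replicate 1 (30) and 4 h replicate 2 (27), and the lower count moved so without 4 h replicate 2 (15). THBS1, F3, CCN1, SLC2A3, ARL14EPL, RELB, C22orf42, CPVL and MARCHF9 were DETs without any 1 of the 6 arrays, and each of the other 34 protein-coding DETs lost its call without at least 1 of them. Of these 9 genes, MARCHF9 and CPVL were also DETs in the methods' t-test. The part of untreated replicate 1 in these results beyond such counts was not tested.

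The lower DETs were few and 2 reached a fold of 2. MARCHF9, a membrane-bound ubiquitin ligase, cluster TC1200007899.hg.1, had 6.98, 7.02 and 7.10 at 4 h, against 7.98, 8.26 and 8.06 in untreated cells. Both groups were tight and nearly 1 log2 unit apart. The log2 difference was -1.07 ± 0.18 (SE), a 2.09-fold lower signal. PNRC1, a nuclear receptor coactivator that restrains growth, had 8.34, 8.46 and 8.18 at 4 h, against 9.74, 8.999 and 9.35 in untreated cells, a log2 difference of -1.04 ± 0.28 (SE). Without untreated replicate 1 that of PNRC1 was -0.85 and no DET.

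HSD17B7, an enzyme of cholesterol synthesis and of steroid reduction, had 8.44, 8.20 and 8.02 at 4 h, against 9.35, 9.29 and 8.77 in untreated cells, a log2 difference of -0.92 ± 0.22 (SE). EPN3, an endocytic adaptor of epithelia, had 4.61, 4.76 and 5.36 at 4 h, against 5.98, 5.47 and 6.07 in untreated cells, a log2 difference of -0.93 ± 0.27 (SE). The 4 h signals of EPN3 lay below the array medians, at the level of genes not expressed, so the size of its difference is uncertain. In either gene the nearest arrays of the groups lay close together, and without untreated replicate 1 neither was a DET, at -0.81 for HSD17B7 and -0.86 for EPN3. The other 5 lower DETs, H2AC8, OR6K6, PAX2, ANKK1 and CCNJL, had log2 differences of -0.73 to -0.70, and OR6K6 was below the array medians in all 6 arrays. H2AC8 is a histone gene of a multigene family, so its probes may read its copies.

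The cholesterol list had HSD17B7 as its 1 DET of 20, where 0.0519% of protein-coding genes were lower DETs, with 7 of 20 above 0 and a median of -0.149. INSIG1, which holds SREBF2 in the endoplasmic reticulum, had 9.29, 9.28 and 9.43 at 4 h, against 10.07, 9.85 and 9.79 in untreated cells, a difference of -0.57 ± 0.24 (SE) that missed the threshold, and MVK differed by -0.55. HMGCS1 went the other way at 0.12. Of 20 genes linked to FOXO and quiescence PNRC1 was the 1 DET, against the same 0.0519%, and the median was -0.269. BCL6 differed by -0.82 and CCNG2, a cyclin of non-dividing cells, by -0.80, both below the threshold, while IRS2 in the same list differed by 0.54. BCL6 differed by -0.44 without 4 h replicate 1, and CCNG2 by -0.48 without untreated replicate 1. In 3 of the 20 every 4 h array lay above every untreated array, and in 3 every one lay below. Groups did not overlap in 11.2% of protein-coding genes. The cholesterol list held 0 DETs without untreated replicate 1 (median -0.208), untreated replicate 2 (-0.116) or 4 h replicate 3 (-0.253), while the FOXO list held PNRC1 as a DET without untreated replicate 2 and 0 DETs without any other 1 of the 6 arrays, at medians from -0.289 to -0.182.

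**Figure D3:**
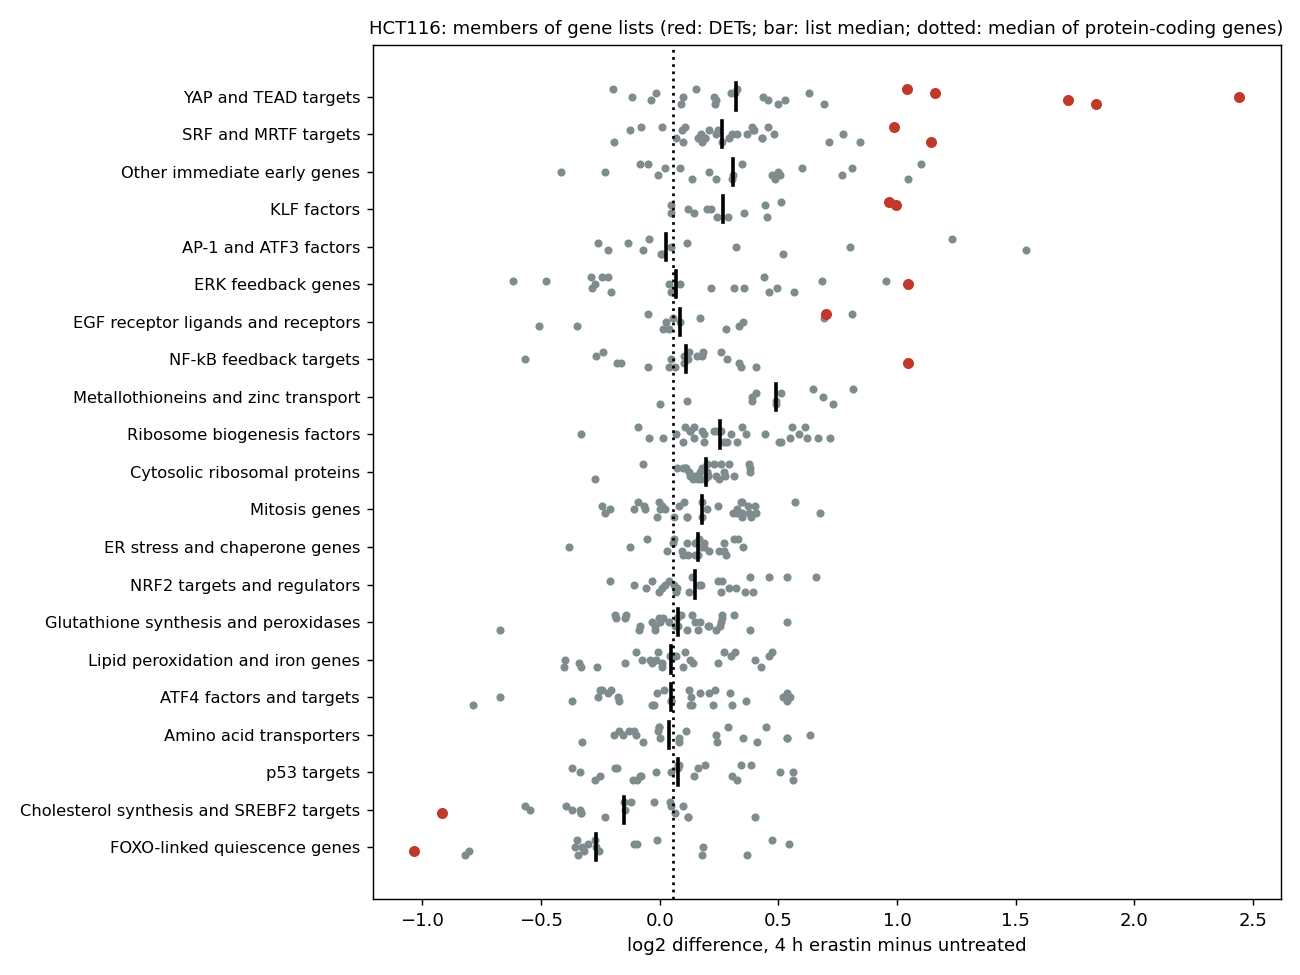
Log2 difference at 4 h (x axis, 4 h erastin minus untreated HCT116) of each measured member of 21 gene lists (rows). Red points are DETs and grey points are not, black bars are list medians and the dotted line is the median of protein-coding genes, 0.055. The 5 DETs of the YAP and TEAD list reach 2.44. The ATF4, NRF2 and glutathione lists hold none, where 0.196% of protein-coding genes were higher and 0.0519% lower DETs.

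The genes best known from cystine starvation and ferroptosis had not moved past the threshold at 4 h. Of 31 ATF4 factors and targets, the amino acid response, 0 were DETs and the median was 0.046. Among protein-coding genes 0.196% were higher and 0.0519% lower DETs, so 0 is the usual count for lists of this size, here and below. ASNS, asparagine synthetase, had 13.03, 12.70 and 12.70 at 4 h, against 13.03, 12.50 and 12.77 in untreated cells, a difference of 0.05. DDIT4, an MTORC1 inhibitor, had 8.76, 9.11 and 9.37 at 4 h, against 10.30, 9.46 and 9.85 in untreated cells, so that every 4 h array was below every untreated array at a log2 difference of -0.79 ± 0.25 (SE), short of the threshold. CHAC1, which degrades glutathione, had 8.06, 7.73 and 7.60 at 4 h, against 8.72, 8.35 and 8.33 in untreated cells, again lower in all 4 h arrays at -0.67 ± 0.26 (SE). Of the 31 members of the list, 6 had every 4 h array above every untreated array and 2 had every one below. Groups did not overlap in 11.2% of protein-coding genes. ATF4 differed by 0.30, TRIB3 by -0.22 and DDIT3 by 0.12.

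SLC7A11, the cystine-carrying subunit that ER binds to block, had 12.80, 11.55 and 12.08 at 4 h, against 12.06, 11.80 and 10.96 in untreated cells. The groups overlapped, and the difference of 0.54 ± 0.54 (SE) was as large as its error. Of 26 NRF2 targets and regulators 0 were DETs with a median of 0.150, of 33 genes of glutathione synthesis and peroxidases 0 with a median of 0.076, and of 30 genes of lipid peroxidation and iron 0 with a median of 0.046. HMOX1 differed by 0.01, NQO1 by 0.07, GPX4 by -0.02, ACSL4 by 0.24 and TFRC, the transferrin receptor, by 0.40. The RT-PCR panel was chosen by the study from transcripts that changed in both lines and from genes known in ferroptosis, so it is not independent of these samples. Of its 12 members 0 were DETs at 4 h, and the median was 0.027. The median SE of a log2 difference was 0.24 over all transcripts, so small differences were not detectable with this number of arrays.

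Metallothioneins, small zinc-binding proteins, with their zinc transport partners had the highest median of the 37 lists, 0.488 over 12 genes with 0 DETs and 11 of 12 above 0. MT1G had 12.17, 12.39 and 12.23 at 4 h, against 11.32, 11.50 and 11.91 in untreated cells, a difference of 0.69 ± 0.23 (SE). SLC30A1, the zinc exporter, had 8.21, 8.24 and 8.01 at 4 h, against 7.78, 7.21 and 7.03 in untreated cells, a difference of 0.81 ± 0.29 (SE). MT1 genes are near copies of each other, and probes may be shared. Ribosome biogenesis factors had a median of 0.255 with 31 of 34 above 0 and 0 DETs, at a median signal of 11.99, where protein-coding genes between 10 and 12 had 0.112.

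The differences at 4 h were set beside the 24 h arrays, which share the 4 h arrays with the first comparison. Over all transcripts 113 passed an adjusted p under 0.05 for 24 h against 4 h (0.0832%), and the DETs of 4 h are given beside them mainly by their levels. They were chosen for high or low 4 h arrays, which by itself tends to give 24 h minus 4 h the opposite sign, so a test of that difference is no support. THBS1, F3, CCN1, LETM2, PNRC1, MARCHF9 and HSD17B7, described next, are the 7 protein-coding DETs that passed an adjusted p under 0.05 in it, so they do not stand for the rest. The other protein-coding DETs did not pass. With 1 array left out, 24 h minus 4 h was -0.51 to -0.18 for DUSP4 and -0.40 to -0.15 for KLF6. THBS1 averaged 8.54 in untreated cells, 10.98 at 4 h and 7.99 at 24 h, where its 24 h arrays had 7.43, 8.06 and 8.48. F3 averaged 10.07, 11.91 and 9.12 and CCN1 8.10, 9.82 and 7.21 at the same times. The 24 h means of all 3 genes lay below the untreated means too, but in each gene above untreated replicate 1. LETM2, a mitochondrial inner membrane protein, averaged 9.58, 10.52 and 8.72 at these times.

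Among the lower DETs, PNRC1 averaged 9.36 in untreated cells, 8.33 at 4 h and 11.29 at 24 h, with 11.90, 10.90 and 11.07 in its 24 h arrays. MARCHF9 averaged 8.10, 7.04 and 8.46 and HSD17B7 9.14, 8.22 and 9.77 at the same times. Of the higher DETs, ARL14EPL averaged 6.74, 8.10 and 7.95 and CPVL 7.03, 7.90 and 7.89, nearly the same at 24 h as at 4 h.

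DDIT4 and CHAC1, lower at 4 h below the threshold, averaged 12.70 and 11.37 at 24 h, against 9.08 and 7.80 at 4 h. ASNS averaged 15.60 at 24 h, 2.79 above 4 h (limma adjusted p = 0.00056).

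**Figure D4:**
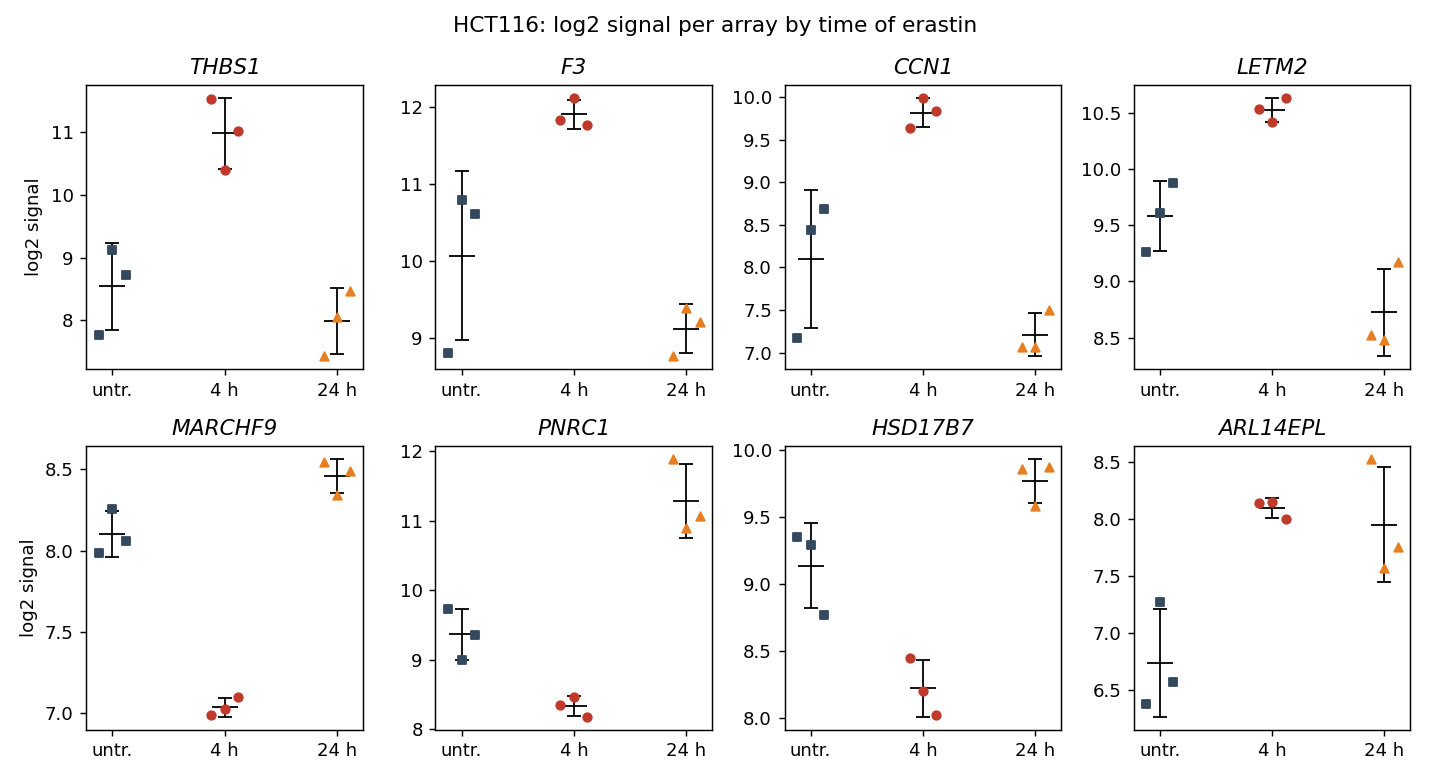
Log2 signal on each HCT116 array (y axis) in untreated cells and after 4 h and 24 h of erastin (x axis) for 8 protein-coding DETs of 4 h. They are the 7 that passed an adjusted p under 0.05 for 24 h against 4 h, and ARL14EPL. Choosing the 7 on both comparisons favours a peak or trough at 4 h. Points are arrays, horizontal bars means and error bars the SD of 3 arrays; THBS1, F3, CCN1 and LETM2 are highest at 4 h, MARCHF9, PNRC1 and HSD17B7 are lowest at 4 h, and ARL14EPL averages 8.10 at 4 h and 7.95 at 24 h.

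Arrays labelled HT-29 gave a second set at 4 h that shares no array with HCT116, but its replicates were not alike. LYZ, a lysozyme gene, had 16.95, 10.12 and 10.78 in replicates 1, 2 and 3 at 4 h, and 16.94, 10.39 and 11.17 in untreated replicates 1, 2 and 3, while the HCT116 arrays of 4 h had 5.54 to 6.04. KRT20, an intestinal keratin, had 14.91, 8.64 and 9.14 at 4 h and 14.81, 9.07 and 8.49 in the untreated arrays, where HCT116 had 6.98 to 7.28 at 4 h. Replicates 2 and 3 labelled HT-29 thus stood nearer to HCT116 than to replicate 1 in these markers. Results are given for all 3 replicates and for replicate 1 by itself.

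Of the 34 higher DETs of HCT116, 30 had a difference above 0 in the arrays labelled HT-29, where 48.7% of protein-coding genes did, and 31 did in replicate 1 alone, where 57.1% of protein-coding genes did. In 14 of 34 the HT-29 groups did not overlap in the same direction, which held for 4.33% of protein-coding genes. The median difference of the 34 was 0.93 in HCT116, where it was used to choose them, and 0.52 in HT-29. By the same thresholds 8 were DETs in HT-29 as well, where 0.173% of protein-coding genes were higher DETs, namely THBS1, F3, CCN1, SLC2A3, SLC2A14, RELB, LETM2 and NUAK2.

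In the arrays labelled HT-29, THBS1 had 10.16, 10.95 and 11.70 at 4 h, against 8.65, 7.31 and 7.58 in untreated cells, a difference of 3.09 ± 0.41 (SE) and of 1.51 in replicate 1. F3 had 10.60, 11.22 and 11.84 at 4 h, against 8.91, 9.12 and 9.06 in untreated cells, a difference of 2.19 and of 1.69 in replicate 1. CCN1 had 8.74, 9.11 and 10.02 at 4 h, against 7.66, 7.26 and 7.62 in untreated cells, a difference of 1.78 and of 1.08 in replicate 1. All 3 genes had every 4 h array above every untreated array in both cell lines. SRF differed by 1.12 in HT-29 with -0.12 in replicate 1, and its HT-29 groups overlapped. KLF6 differed by 0.18 and MOSPD1 by 0.21.

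Of the 9 lower DETs of HCT116, 6 had a difference below 0 in the arrays labelled HT-29, where 51.3% of protein-coding genes did, 4 did in replicate 1 alone, where 42.9% of protein-coding genes did, and 0 were DETs, where 0.0346% of protein-coding genes were lower DETs. Their median difference was -0.73 in HCT116, where it was used to choose them, and -0.56 in HT-29. MARCHF9 had 6.92, 7.20 and 7.39 at 4 h, against 6.68, 8.14 and 8.75 in untreated HT-29 cells, so that replicate 1 ran the other way. EPN3 had 6.30, 4.69 and 5.30 at 4 h, against 6.73, 6.21 and 6.31 in untreated HT-29 cells, lower in all 3 replicates but with overlapping groups.

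A test of the difference between the cell lines at 4 h, the interaction in limma over all 18 arrays, called 0 of 135750 transcripts at an adjusted p under 0.05 and 5132 (3.78%) at an unadjusted p under 0.05. Across all protein-coding genes the differences of the 2 lines were nearly unrelated, at a Pearson r of 0.024 that is given as a description, since genes are not independent and the arrays of a line share its controls.

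**Figure D5:**
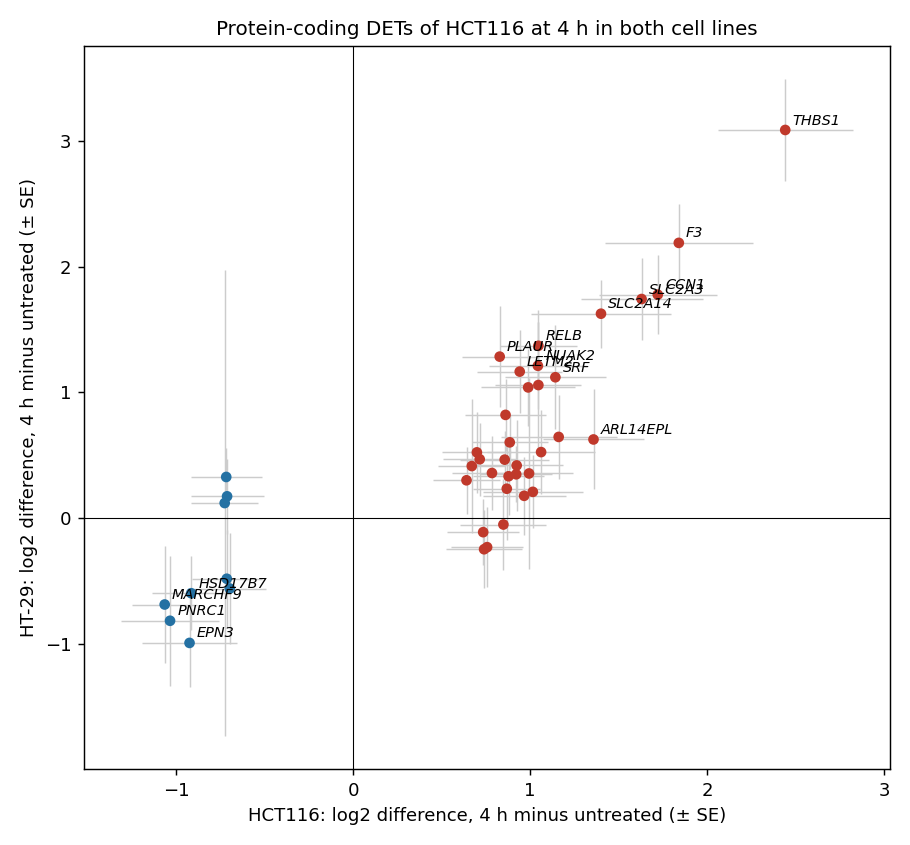
Log2 difference of 4 h erastin minus untreated in HCT116 (x axis) and in the arrays labelled HT-29 (y axis) for the 43 protein-coding DETs of HCT116, with bars of 1 SE. Higher DETs are red and lower DETs blue; 30 of 34 red points lie above 0 on the y axis, with THBS1 at 3.09, and 6 of 9 blue points lie below 0.

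Genes that are not protein-coding, or for which RefSeq gave no type, made up 12 of the higher and 16 of the lower single-gene DETs. Of the 16 lower ones 12 were small RNA genes or their copies (RNU, RNA5S, SNORD and MIR), against 2 of the 12 higher ones, and short probe sets of this kind hold few probes. The share of small RNA genes among all such clusters was not counted, so these counts are a description only. CCAT1, a long noncoding RNA of colon cancer, differed by 1.07, MIR4719 by 1.22 and RAET1K, a pseudogene of the NKG2D ligands, by -1.29. Outside the single-gene clusters 111 transcripts with no gene name or several were higher DETs and 211 were lower DETs. Over all transcripts 0.116% were higher and 0.175% lower DETs.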

How the data were processed

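RNA from HCT116 and HT-29 cells was hybridised to Affymetrix whole-transcriptome arrays. The deposited values are log2 signals that the authors had normalized, with a value for each transcript on each array. The methods describe RMA per cell line, mean summarization to transcripts and log2 transformation, and also TAC software. The sources used here do not say from which of them the deposited values came. No raw signals or depth were used, so precision rests on the number of arrays (median SE 0.24).

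Of 138745 features 2995 controls were left out and 135750 transcripts were tested. Names came from the platform annotation for single-gene clusters only, and RefSeq IDs (GRCh38.p14) matched 25041 of 35528, with 0 names changed. The 9 HCT116 arrays were fitted together by lmFit and eBayes of limma 3.58.1 under R 4.3.3, two-sided, with 0 covariates. A differentially expressed transcript had to reach a fold of 1.2 in either direction and to stay within 0.005 in unadjusted p. Adjusted p-values are Benjamini-Hochberg over all transcripts. Where nothing ties arrays to separate cultures beyond the methods' statement, p-values measure the spread between these arrays. Same-numbered 4 h and untreated HCT116 arrays deviated together at r of 0.23, -0.09 and 0.13, so the numbers were not taken as pairs. Those labelled HT-29 had r of 0.34, -0.05 and 0.31, and their tests were unpaired too, although their replicates were not alike. Differences given for single HT-29 replicates match arrays by number and are descriptions only. The difference between cell lines was the interaction over 18 arrays.

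Members and the 37 gene lists (891 entries, 811 measured) were chosen with earlier results of these data known. Named are the 15 higher and 15 lower protein-coding genes with the largest difference among differentially expressed ones with no overlap of groups (9 lower qualified), up to 4 members per list with the smallest p, those passing in both cell lines and the RT-PCR panel. Other members were named after their values were seen. The alternatives were the methods' t-test, run as a plain test without the permutation-based p they also name, other array sets, a replicate block, filters, normalizations, limma settings and leaving out each array. The script was tested on simulated data. Tables and figures used the package data.table (1.17.8), Python 3.11.15, pandas 2.3.3, numpy 2.4.6 and matplotlib 3.10.9.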

Additional observations from a re-analysis of the deposited data

How the results depend on the processing

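No transcript passed an adjusted p under 0.05 at 4 h, and none for the difference between cell lines, under any alternative run. The number of DETs depended on the settings. Against 46 higher and 26 lower single-gene DETs, the methods' t-test on 6 arrays gave 90 and 55, 1 fit of all 18 arrays 30 and 11, array weights 83 and 48, and a test of single-gene clusters alone 57 and 43. Leaving out 1 array gave 17 to 79 higher and 15 to 37 lower, and 299 to 501 over all transcripts. Over all transcripts the 394 DETs became 241 in the fit of 18 arrays, 184 above the median signal, 100 among single-gene clusters alone and 689 with array weights. The fit with replicate number as a block gave 60 higher and 35 lower single-gene DETs and 537 over all transcripts. In HT-29 such a block leaves the differences as they were, so the 30 of 34 above 0 could not change. With the block, 10 of the 34 higher protein-coding DETs were DETs in HT-29. Centring arrays on the median split the DETs over all transcripts into 192 higher and 196 lower, against 157 and 237. Without 1 HT-29 array, 28 to 31 of the 34 had a difference above 0 and 6 to 10 were DETs in HT-29.

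Of 814 values of the 43 protein-coding DETs under the alternatives 555 remained DETs, 259 did not and 0 reversed. The lack of reversals says little, since the groups of these genes did not overlap and most alternatives could not change the sign. The methods' t-test kept 7 of 43 and the fit of 18 arrays 20. THBS1, F3, CCN1, SLC2A3, ARL14EPL, RELB and C22orf42 were lost under the t-test only, and MARCHF9 and CPVL under the fit of 18 arrays only. The cause was not tested. With 3 arrays per group small differences were not detectable. The alternatives with replicates 2 and 3 or replicate 1 of HT-29 alone were chosen after seeing the data.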
